A study of Drosophila melanogaster with 8 samples.

Results

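A set of 9 genes of the activity-regulated transcription programs of neurons was followed in sorted fly neurons, namely Hr38, sr, kay, Jra, CrebB, CrebA, Crtc, Atf3 and cbt. They were chosen by name as neuronal activity, CREB and AP-1 response genes, and all 9 were found among the 17868 genes counted. The libraries came from adult males, about 2 weeks old, kept under a light-dark cycle. Clock neurons carried EGFP under clk856-GAL4 (clk856 > EGFP), a driver for most of the clock network, and neurons of all kinds carried EGFP under nSyb-GAL4 (nSyb > EGFP), so that both populations express GAL4 and EGFP and the second contains some of the first. Each genotype was sampled at ZT2, shortly after lights-on, and at ZT14, shortly after lights-off, with 2 libraries (R1 and R2) of sorted cells per condition, 8 libraries in all. Brains of several flies were pooled for each dissociation. More brains were dissected and fewer cells sorted per sample for clk856 than for nSyb, so that input and genotype cannot be told apart. From a dissociated sample 2 sets of cells were collected, so that R1 and R2 may share flies and the p values may then measure technical spread only.

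When a neuron fires, calcium and cAMP rise and act on transcription through kinases and phosphatases. In one route protein kinase A phosphorylates CREB, and the phosphatase calcineurin frees the CREB coactivator CRTC, which salt-inducible kinases (SIK) hold in the cytoplasm. In another, MAP kinases including JNK act on AP-1, the pair of Fos and Jun. The transcripts that follow quickly encode further transcription factors, and in insects those of Hr38 and sr are used as marks of recently active neurons. CREB is also known for its place in long-term memory and in the clock of the fly.

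The clk856 libraries held 4823985 to 8439193 reads on genes and the nSyb libraries 7970236 to 8449829. Levels are given as RPM, the deposited read counts divided by a library total, and 3 reads, taken as the floor of detection, were 0.161 to 0.299 RPM, a limit that covers counting error only. All 5 neuronal markers examined (nSyb, elav, brp, Syt1 and para) were present in every library and summed to 2552 to 2934 RPM. The clock transcript tim, a check of the time labels, was at 17.7 and 28.8 RPM at ZT2 and at 495 and 538 RPM at ZT14 in the clk856 libraries. The biological coefficient of variation, the spread between libraries of one condition, was 0.465 in clk856 and 0.909 in nSyb over the same 8926 genes. These include genes too low for the nSyb test, which covered 7671. A change of given size was harder to call in nSyb for most members but not for Hr38. The standard error of its time effect was 0.34 in nSyb and 0.50 in clk856, and that of each other member was larger in nSyb. The markers of glia were not absent, with 7 of 7 markers summing to 41.1 to 70.3 RPM in the clk856 libraries and 72.2 to 188 RPM in the nSyb libraries. The markers of clock neurons (tim, Clk and others) summed to 215 to 1243 RPM in clk856 and 2.91 to 27.7 RPM in nSyb. The clk856 and nSyb libraries may have been sequenced in separate runs, which the labels do not settle, so that run and genotype cannot be told apart. The defining glial gene repo had no reads in 3 of the 4 nSyb libraries and was at 6.47 RPM in nSyb ZT14 R2. In clk856 it was at 1.63 and 5.68 RPM at ZT2 and at 0.14 and 2.67 RPM at ZT14. The fat body markers Lsp2 and Fbp1 had no reads in any library. The hemocyte markers Hml and NimC1 summed to 3.45 and 13.68 RPM in the clk856 ZT14 libraries and to at most 0.05 RPM in all others. Markers of photoreceptors summed to at most 7.92 RPM and those of muscle to at most 0.47 RPM.

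In the dm6 genome all 9 are protein-coding genes on 5 chromosome arms. Hr38 (FBgn0014859) lies at chr2L:20683462-20714588 and cbt (FBgn0043364) at chr2L:476446-479688, both on the minus strand. Jra (FBgn0001291) is at chr2R:10096480-10098556 on the plus strand. Crtc (FBgn0036746) is at chr3L:17659818-17669234 on the minus strand and CrebA (FBgn0004396) at chr3L:15535395-15553214 on the plus strand. The plus strand of chromosome 3R holds sr (FBgn0003499) at chr3R:18090803-18135583 and kay (FBgn0001297) at chr3R:29765995-29794113. Atf3 (FBgn0028550) is at chrX:1242740-1275284 on the minus strand and CrebB (FBgn0265784) at chrX:18366357-18377864 on the plus strand. Reads cover whole transcripts in this protocol, and the strand used in counting is not stated. Exon bases shared with genes on the other strand were 6.89% for CrebB (with por), 2.38% for Jra (with RpLP0-like) and 2.18% for Hr38 (with CG2617), and 2.40% of Crtc was shared with a small RNA gene on its own strand. The other 5 genes shared none.

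Per kilobase of exon, the only scale here on which genes can be compared, the 9 levels spanned less than a decade in the clock neurons. In clk856 the mean over 4 libraries was highest for Jra at 17.5 RPM per kb (range 16.4 to 18.4) and cbt at 14.4 (11.8 to 17.8), which overlapped. Crtc followed at 7.45 (6.61 to 8.35), below all libraries of cbt and above all of the next gene. The remaining 6 formed one series in which each neighbor overlapped the next: sr at 4.28, kay at 3.87, Hr38 at 3.39, Atf3 at 3.14, CrebA at 2.74 and CrebB at 2.70 RPM per kb. In nSyb the order was Jra at 18.0, cbt at 9.67, Crtc at 7.28, Hr38 at 6.61, kay at 4.12, Atf3 at 2.56, sr at 1.65, CrebB at 0.830 and CrebA at 0.659 RPM per kb, again with overlap between neighbors. The levels per kb of sr, CrebB and CrebA were lower in every nSyb library than in any clk856 library, as for 13.5% of the 7784 genes tested. Those of the other 6 genes overlapped between the populations.

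**Figure D1:**
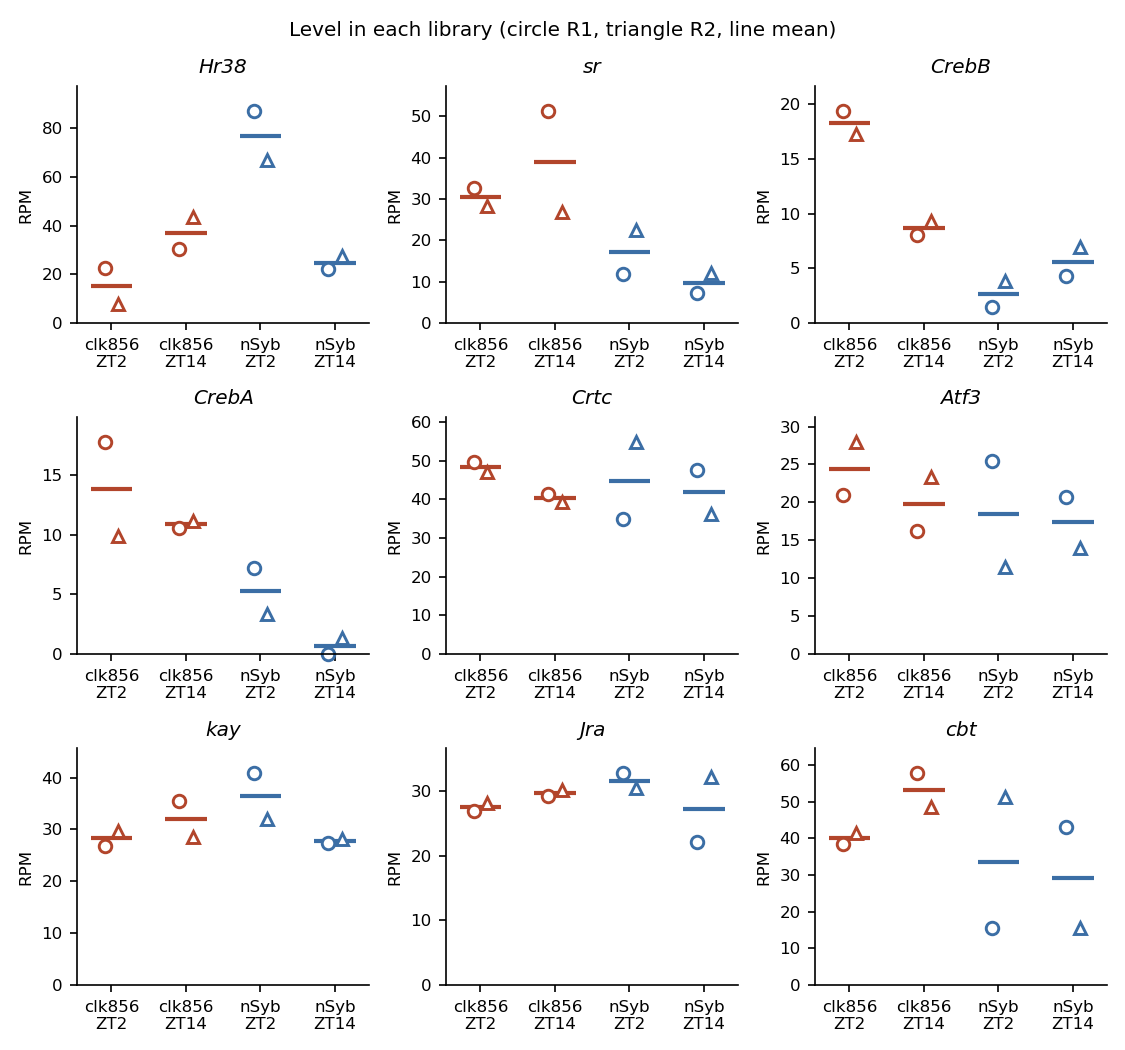
RPM of each of the 9 genes in the 8 libraries, with circles for R1, triangles for R2 and a line at the mean of the 2 libraries of a condition, in clk856 (red) and nSyb (blue). Hr38 was at 7.77 to 43.7 RPM in clk856 and 22.1 to 86.9 RPM in nSyb, with the higher libraries at ZT14 in clk856 and at ZT2 in nSyb.

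Does expression of these genes differ between morning and evening, and does it do so alike in clock neurons and in all neurons? No member passed an adjusted p of 0.05 for ZT14 against ZT2 in clk856 in edgeR's quasi-likelihood test. Of 8188 genes 0.0244% did, both of them higher at ZT14. The clock transcript Clk, with means of 94.9 RPM at ZT2 and 15.4 RPM at ZT14 in clk856, also missed it (adjusted p = 0.0559, edgeR). Hr38 and CrebB had an unadjusted p under 0.05, as did 6.77% of all genes, and DESeq2, edgeR's likelihood ratio test and limma voom also called 0 of the 9. In nSyb no member and 0% of 7671 genes passed in edgeR. Hr38 alone had an unadjusted p under 0.05, against 3.95% of all genes. It was among the 224 of 7671 genes called by DESeq2, and was not called by the likelihood ratio test or limma voom. For the difference of the time effects, 0 of 9 members and 0.0112% of 8926 genes passed in edgeR. Hr38 was again the only member with an unadjusted p under 0.05 (6.51% of all genes). It was among the 178 of 8926 genes called by DESeq2 and the 85 called by the likelihood ratio test, and was not called by limma voom. The libraries of the 2 times did not overlap for 5 of the 9 members in clk856 (Hr38, Jra, CrebB, Crtc and cbt), against 38.5% of all genes tested, and for 4 of the 9 in nSyb (Hr38, kay, CrebB and CrebA), against 32.4%. The median log2 fold change of the 9 from ZT2 to ZT14 was 0.10 in clk856, with 5 above 0, and -0.23 in nSyb, with 1 above 0, against 0.02 and -0.01 over all genes tested.

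Hr38, the only fly member of the NR4A family of nuclear receptors, had opposite time profiles in the 2 populations. In clk856 it was at 22.5 and 7.77 RPM at ZT2 and at 30.6 and 43.7 RPM at ZT14. Both ZT14 libraries were above both ZT2 libraries, and the ratio of the means was 2.45. In nSyb it was at 86.9 and 67.1 RPM at ZT2 and at 22.1 and 27.4 RPM at ZT14. Here both ZT14 libraries were below both ZT2 libraries, and the ZT2 mean was 3.11 times the ZT14 mean. Libraries that separated by time in opposite directions in the 2 genotypes were found for 5.76% of all genes and for 2 of the 9 members, Hr38 and CrebB.

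The log2 fold change of Hr38 from ZT2 to ZT14 was 1.27 (standard error [SE] 0.50, adjusted p = 0.725, edgeR) in clk856 and -1.65 (SE 0.34, adjusted p = 0.9999, edgeR) in nSyb. The difference between these effects was 2.91 on the log2 scale (SE 0.69, unadjusted p = 0.00301, adjusted p = 0.560, edgeR). By DESeq2 the same difference was 2.92 with an adjusted p of 9.95e-04, by the likelihood ratio test of edgeR 2.91 with 0.0155, and with no filter on low counts 2.92 with 2.08e-04 in edgeR. Over the 16 alternatives it stayed between 2.35 and 3.89. Its adjusted p was under 0.05 in those 3, which called 178, 85 and 98 genes in all, against 1 by the quasi-likelihood test. It was 0.842 by limma voom, and in edgeR 0.799 with a replicate block and 0.563 with scaling by library size alone. The clk856 effect leaned on the ZT2 R2 library, the lowest of all 8, and was 0.71 without it and 2.24 without ZT2 R1. In bulk RNA a change in the number of cells that express a gene and a change in its RNA per cell cannot be told apart.

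Between the populations Hr38 was at 26.1 ± 15.03 RPM (SD, n = 4) in clk856 and 50.9 ± 31.3 RPM (SD, n = 4) in nSyb, both SDs including the spread between times. The log2 fold change of -0.90 (SE 0.55, adjusted p = 0.316, edgeR; exact two-sided permutation test of the RPM values, p = 0.286) did not pass. Within a time point the direction turned, with a log2 fold change of -2.25 between clk856 and nSyb at ZT2 (adjusted p = 0.124, edgeR) and 0.66 at ZT14 (adjusted p = 0.273, edgeR). At ZT2 both clk856 libraries lay below both nSyb libraries, and at ZT14 both lay above.

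The heat-shock gene Hsp68, which encodes an inducible chaperone of the Hsp70 family, was the only gene of all 8926 whose time effect differed between genotypes in edgeR, and its pattern was the reverse of that of Hr38. Hsp68 was at 354 and 416 RPM at ZT2 and at 165 and 194 RPM at ZT14 in clk856. In nSyb it was at 14.9 and 14.6 RPM at ZT2 and at 57.5 and 52.7 RPM at ZT14. Its difference of time effects was -3.01 on the log2 scale (SE 0.23, adjusted p = 0.0119, edgeR). Without a clk856 library the adjusted p rose to 0.0616 (ZT2 R1), 0.124 (ZT2 R2) and 0.0843 (ZT14 R1), and limma voom gave 0.842. Brains were digested at room temperature before sorting, and the 14 heat-shock genes listed summed to 1195 to 1969 RPM in clk856 and 400 to 632 RPM in nSyb. Of the 13 that were tested, 0 had a difference of time effects above 0, and the median was -0.96. The part of this in the values of Hr38 was not tested.

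**Figure D2:**
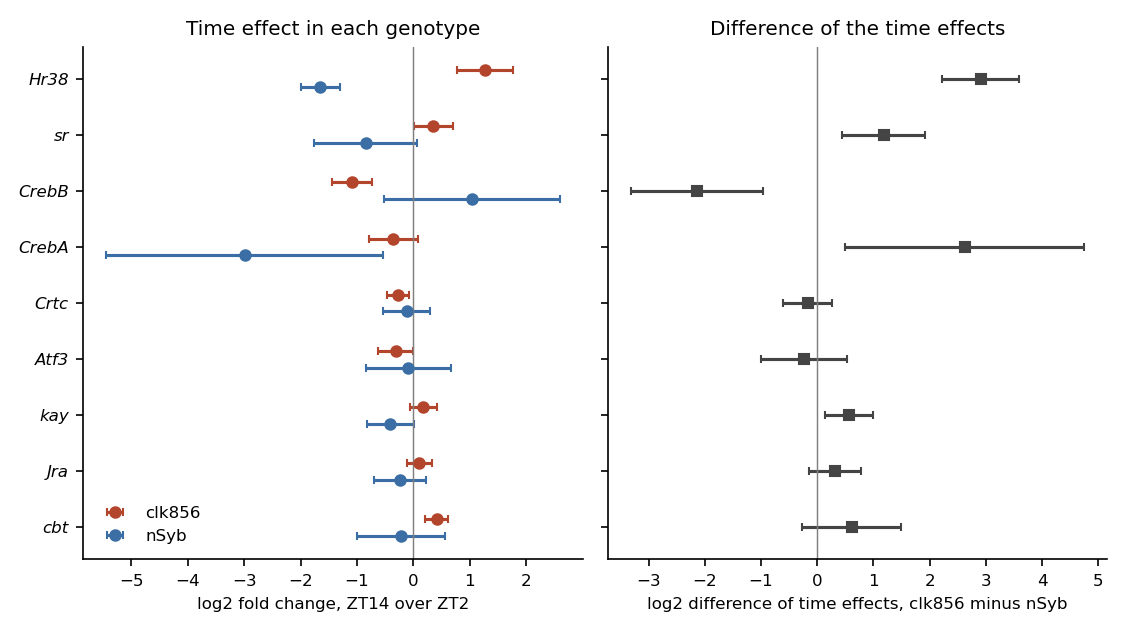
Left, log2 fold change from ZT2 to ZT14 of each gene in clk856 (red) and nSyb (blue), with bars of 1 SE derived from the edgeR test statistic. Right, the difference of these effects, clk856 minus nSyb, from the fit of all 8 libraries. Hr38 had 1.27 in clk856, -1.65 in nSyb and a difference of 2.91, and none of the values passed an adjusted p of 0.05.

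Stripe (sr), an EGR-type zinc finger factor best known from tendon cells and induced by firing in insect neurons, was the one member called different between the populations. It was at 32.7, 28.3, 51.2 and 26.8 RPM in clk856, in the order ZT2 R1, ZT2 R2, ZT14 R1 and ZT14 R2, and in the same order at 11.8, 22.5, 7.30 and 12.1 RPM in nSyb. The lowest clk856 value exceeded the highest nSyb value, as for 13.5% of the 7784 genes tested. The means were 34.7 ± 11.2 RPM and 13.4 ± 6.42 RPM (SD, n = 4 each), a ratio of 2.59. The log2 fold change was 1.43 (SE 0.39, adjusted p = 0.0313, edgeR; exact two-sided permutation of the RPM values, p = 0.0286, the smallest that 4 libraries against 4 allow). The call was near the threshold. The adjusted p exceeded 0.05 on leaving out any one library except nSyb ZT2 R2, with a range of 0.00923 to 0.119 and a log2 fold change of 1.18 to 1.83, and was 0.0556 with limma voom. At ZT2 alone the log2 fold change was 0.90 (adjusted p = 0.408, edgeR) and at ZT14 alone 2.09 (adjusted p = 0.0883, edgeR).

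The time profile of sr had the signs of that of Hr38 but not its separation. The libraries of the 2 times overlapped in both genotypes, and the log2 fold change to ZT14 was 0.35 (SE 0.35) in clk856 and -0.85 (SE 0.91) in nSyb. The difference was 1.18 (SE 0.74, adjusted p = 0.872, edgeR). It was 0.30 without nSyb ZT2 R2 and ZT14 R1 together, a choice made after seeing the data. These libraries held the higher ZT2 and the lower ZT14 value of sr in nSyb, so that a smaller difference was fixed in advance. The clk856 ZT14 R1 library, at 51.2 RPM, set the sign in clk856, where the effect was -0.21 without it.

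By the distance between mean log2 CPM profiles over the 4 conditions, each centered on its own mean, the genes nearest to Hr38 among 8926 were lncRNA:CR44188 (distance 0.29), Mon1 (0.32), which encodes a protein of endosome maturation, and Tsen54 (0.43), a subunit of the tRNA splicing endonuclease. Hr38 itself had mean log2 CPM of 4.88 and 6.33 at ZT2 and ZT14 in clk856 and 7.32 and 5.69 in nSyb. Mon1 was at 4.02 and 5.11 in clk856 and 6.09 and 4.75 in nSyb. The noncoding RNA was close to the floor, with log2 CPM between -1.16 and 0.90. Nearest to sr were CG13325 (0.16), Nopp140 (0.16), which encodes a nucleolar protein, and Tnks (0.16), which encodes tankyrase. Here CPM is scaled to the reads on genes. With 8 libraries such neighbors are a description only.

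Among the CREB genes, CrebB, the fly CREB that protein kinase A acts on, was the other member whose libraries separated by time in opposite directions, with signs the reverse of those of Hr38. In clk856 it was at 19.4 and 17.2 RPM at ZT2 and at 8.01 and 9.34 RPM at ZT14. The ZT2 mean was 2.11 times the ZT14 mean, and the libraries did not overlap. In nSyb CrebB was at 1.48 and 3.86 RPM at ZT2 and at 4.33 and 6.91 RPM at ZT14, a ratio of ZT14 to ZT2 of 2.10. The ZT14 libraries were the higher ones here. The log2 fold change to ZT14 was -1.08 (SE 0.35, adjusted p = 0.690, edgeR) in clk856 and 1.04 (SE 1.55, adjusted p = 0.9999, edgeR) in nSyb. Their difference was -2.14 (SE 1.18, adjusted p = 0.818, edgeR). With one library left out the nSyb effect ran from 0.49 (without ZT2 R1) to 1.95 (without ZT2 R2), and the difference from -3.03 (without nSyb ZT2 R2) to -1.57 (without nSyb ZT2 R1). Leaving out nSyb ZT2 R2 and ZT14 R1 together, a choice made after seeing the data, removed the higher ZT2 and the lower ZT14 value of CrebB in nSyb. A larger difference was thus fixed in advance. It was -3.31, with no replicate left at either nSyb time, which gives no support for a difference.

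All 4 clk856 libraries were above all 4 nSyb libraries for CrebB, as for 13.5% of the genes tested. The means were 13.5 ± 5.65 RPM and 4.15 ± 2.23 RPM (SD, n = 4 each), a ratio of 3.25. The log2 fold change of 1.78 (SE 0.63, adjusted p = 0.0853, edgeR) missed the threshold. The exact two-sided permutation test of the RPM values gave p = 0.0286. DESeq2, which called 2123 of all genes, gave 1.77 with an adjusted p of 0.0116. The gap was wide at ZT2, at 2.84 on the log2 scale, and 0.71 at ZT14.

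CrebA, a CREB3-type factor that raises genes of the secretory pathway, was also higher in every clk856 library, again as for 13.5% of the genes tested. It was at 17.7 and 9.87 RPM at ZT2 and 10.6 and 11.2 RPM at ZT14 in clk856, and at 7.21 and 3.33 RPM at ZT2 and 0 and 1.32 RPM at ZT14 in nSyb. The library with no reads, nSyb ZT14 R1, allows up to 0.171 RPM. The ratio of the means between populations was 4.16, and the log2 fold change of 2.13 (SE 1.16, adjusted p = 0.260, edgeR; exact two-sided permutation test of the RPM values, p = 0.0286) did not pass. In nSyb both ZT14 libraries were below both ZT2 libraries, with a log2 fold change of -2.99 (SE 2.45, adjusted p = 0.9999, edgeR). It ran from -9.55 without ZT14 R2, which leaves a ZT14 library with no reads, to -2.003 without ZT14 R1. In clk856 the times overlapped (log2 fold change -0.36, SE 0.44, adjusted p = 0.922, edgeR), and the ZT2 R1 library set the sign.

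Crtc, the CREB coactivator, differed little between conditions. It was at 49.8 and 47.1 RPM at ZT2 and 41.3 and 39.4 RPM at ZT14 in clk856, and at 34.9 and 54.7 RPM at ZT2 and 47.5 and 36.2 RPM at ZT14 in nSyb. Both clk856 libraries were lower at ZT14, by a log2 fold change of -0.27 (SE 0.19, adjusted p = 0.834, edgeR), and the nSyb libraries overlapped. Between populations the means were 44.4 ± 4.86 RPM and 43.3 ± 9.46 RPM (SD, n = 4 each), with a log2 fold change of 0.10 (SE 0.21, adjusted p = 0.812, edgeR) that was -0.03 when only library size was used for scaling.

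The AP-1 genes spanned narrow ranges. For kay, the fly Fos, which has also been tied to feedback in the fly clock, the libraries lay between 26.8 and 35.5 RPM in clk856 and between 27.3 and 40.8 RPM in nSyb. In nSyb both ZT2 libraries, at 40.8 and 32.02 RPM, were above the ZT14 libraries, at 27.3 and 28.1 RPM (log2 fold change -0.41, SE 0.41, adjusted p = 0.9999, edgeR), and in clk856 the times overlapped (0.18, SE 0.24, adjusted p = 0.933, edgeR). Jra, the fly Jun, lay between 27.0 and 30.2 RPM in clk856 and between 22.2 and 32.8 RPM in nSyb. Its clk856 libraries separated by time, at 27.0 and 28.2 RPM against 29.2 and 30.2 RPM, a log2 fold change of 0.10 (SE 0.22, adjusted p = 0.967, edgeR). Between populations the log2 fold change was -0.02 (SE 0.22, adjusted p = 0.962, edgeR) for kay and 0.03 (SE 0.21, adjusted p = 0.952, edgeR) for Jra, with signs that turned with single libraries, with the time point used and, for Jra, with the scaling.

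Atf3, a bZIP factor with known roles in stress and metabolism that can pair with Jun, was at 20.9 and 27.9 RPM at ZT2 and 16.2 and 23.3 RPM at ZT14 in clk856. In nSyb it was at 25.5 and 11.5 RPM at ZT2 and 20.8 and 14.04 RPM at ZT14. The times overlapped in both, with log2 fold changes of -0.31 (SE 0.31) and -0.09 (SE 0.76). Between populations the log2 fold change was 0.37 (SE 0.35, adjusted p = 0.546, edgeR).

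The gene cbt encodes a Krüppel-like factor that acts as a repressor and is known in flies for sugar sensing and as an output of the clock. In clk856 it was at 38.3 and 41.6 RPM at ZT2 and at 57.7 and 48.7 RPM at ZT14. Both ZT14 libraries were higher, by a ratio of 1.33 of the means, with a log2 fold change of 0.41 (SE 0.20, adjusted p = 0.763, edgeR). In nSyb the 2 libraries of one time differed more than the times did, at 15.5 and 51.3 RPM at ZT2 and 43.1 and 15.5 RPM at ZT14.

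The 2 nSyb libraries with high cbt, ZT2 R2 and ZT14 R1, also had the highest sums of the 7 glial markers, 188 and 171 RPM against 72.2 in ZT2 R1 and 131 in ZT14 R2. Of the 7 markers, 4 were higher in both of these libraries than in either of the others. They were Gs2, at 73.3 and 91.3 RPM against 24.4 and 59.5 RPM, wrapper, at 21.1 and 15.7 RPM against 0.620 and 0 RPM, alrm, at 12.9 and 22.5 RPM against 0 and 2.36 RPM, and axo, at 0.750 and 0.970 RPM against no reads. The other 3 did not follow cbt. Eaat1 was at 79.9 and 40.4 RPM against 47.2 and 62.6 RPM, the lowest value being that of ZT14 R1, and repo and moody had no reads in the 2 libraries and were seen in ZT14 R2 only. Reads outside genes made up 8.94% and 8.92% of these libraries and 7.55% and 7.64% of the others. Over all libraries the log2 fold change of cbt between clk856 and nSyb was 0.62 (SE 0.41, adjusted p = 0.352, edgeR). Leaving out these 2 libraries, a choice made after seeing the data, also removed the 2 highest cbt values of nSyb, so that a larger difference was fixed in advance. The log2 fold change was then 1.69 (adjusted p = 0.00626, edgeR), which gives no support for a difference. Of the 19 alternatives cbt was called in this one only. The part of glial RNA in the cbt values was not tested.

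**Figure D3:**
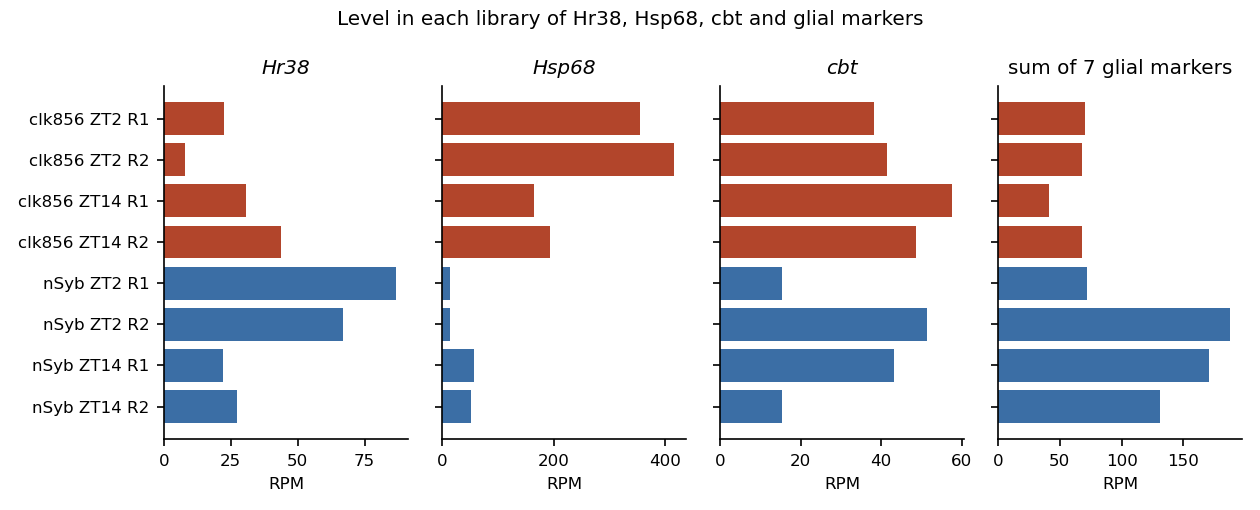
RPM in each of the 8 libraries (red clk856, blue nSyb) of Hr38, Hsp68, cbt and the sum of the 7 glial markers, on separate linear axes from 0. In both genotypes Hsp68 was low where Hr38 was high, and the 2 nSyb libraries with cbt at 51.3 and 43.1 RPM had the highest glial sums, 188 and 171 RPM.

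Across the 9 members, 1 (sr) passed an adjusted p of 0.05 between the populations, against 17.0% of the 7784 genes tested, of which 805 were higher (10.3% of genes) and 521 lower in clk856. Both sr and CrebB had an unadjusted p under 0.05, as did 29.6% of all genes. With scaling by library size alone the split over all genes was 675 higher and 787 lower, the median of all genes moved to -0.14 and sr was still called. The median log2 fold change of the members was 0.37, against -0.01 over all genes, with 7 of 9 above 0. Non-overlapping libraries were found for 3 of the 9 (sr, CrebB and CrebA), all higher in clk856, against 25.8% of all genes in either direction.

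Genes of the routes that act on the members were examined in the same comparison. Of 16 tested genes of the cAMP and CREB route, 6 were higher and 1 lower in clk856, with a median log2 fold change of 0.16. Sik3, one of the SIK kinases that hold Crtc in the cytoplasm, was at 2.57 to 9.30 RPM in nSyb and 21.8 to 32.6 RPM in clk856. Its log2 fold change of 2.07 (SE 0.44, adjusted p = 0.00977, edgeR) was the highest in the list. The adenylyl cyclase gene Ac13E was next at 1.54 (adjusted p = 0.0285, edgeR), and the smallest called excess in clk856 was that of the phosphodiesterase gene Pde8 at 0.64 (adjusted p = 0.0381, edgeR). Pka-C3, which encodes a catalytic subunit related to protein kinase A, was lower by a log2 fold change of -1.53 (SE 0.31, adjusted p = 0.00734, edgeR). Other subunit genes of protein kinase A went the other way. Pka-C1 (0.75, adjusted p = 0.00661, edgeR) and Pka-R1 (1.30, adjusted p = 8.47e-04, edgeR) were higher in clk856, and Pka-R2 was not called (0.05, adjusted p = 0.927, edgeR). Sik2 was also higher (1.52, adjusted p = 0.00825, edgeR).

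In the calcium route 2 of 10 tested genes were higher and 3 lower in clk856. CaMKII (0.48, adjusted p = 0.0124, edgeR) and CASK (0.41, adjusted p = 0.0321, edgeR), which encode a calcium-dependent kinase and a scaffold that binds it, were higher. Mef2, a transcription factor that calcium signals act on, was at 188 to 290 RPM in nSyb and lower in clk856, at 89.1 to 113 RPM (log2 fold change -1.14, adjusted p = 6.06e-04, edgeR). CanB2, a regulatory subunit of calcineurin, was lower by -0.90 on the log2 scale (adjusted p = 0.00140, edgeR).

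In the MAP kinase and JNK route 1 of 15 tested genes was higher and 2 were lower in clk856, namely Tak1 (1.16, adjusted p = 0.0476, edgeR), slpr (-1.28, adjusted p = 8.73e-04, edgeR) and lic (-0.89, adjusted p = 0.00899, edgeR). Tak1 and slpr encode kinases at the top of JNK cascades and lic a kinase that activates p38. The call of Tak1 held in 3 of the 19 alternatives, that of Pde8 in 8, CASK in 9 and Ac13E in 11.

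Among other bZIP factors 5 of 13 were higher and 2 lower in clk856. The clock repressor vri led at 7.21 (adjusted p = 0.00475, edgeR), followed by cnc, the fly Nrf2, at 1.60 (adjusted p = 0.0199, edgeR). The lowest of those called were maf-S (-0.74, adjusted p = 0.0304, edgeR), which encodes a partner of cnc, and crc, the fly ATF4 (-0.57, adjusted p = 0.0153, edgeR). With time, vri was the one gene of all these lists that passed in clk856, at 3.63 (SE 0.16, adjusted p = 0.00274, edgeR). When the time effect was taken from one fit of all 8 libraries in 4 groups, so that the spread was shared with nSyb, vri was at 3.62 (unadjusted p = 0.00492, edgeR) and tim at 4.47 (unadjusted p = 9.69e-04, edgeR), and 0 of 8926 genes passed the adjusted threshold. Of 87 listed genes tested in clk856 besides the members, 14 (16.1%) had an unadjusted p under 0.05, against 6.77% of all genes. The lists were chosen with earlier results of these data known and hold clock genes such as vri, so that these shares are a description only.

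Of 15 other nuclear receptors tested, Eip78C was higher in clk856 (1.98, adjusted p = 0.00671, edgeR) and ftz-f1 lower (-1.07, adjusted p = 0.00646, edgeR), and 13 did not pass. None of the 4 tested genes of the KLF and Sp group, relatives of cbt, passed in edgeR, and 1 had an unadjusted p under 0.05. In the heat-shock list 7 of 13 genes were higher and 1 lower in clk856, with a median log2 fold change of 1.51. Hsp68 (3.09, adjusted p = 0.00312, edgeR) and Hsp27 (2.49, adjusted p = 0.00142, edgeR) led the list, and DnaJ-1 was the lowest of the 7 (0.63, adjusted p = 0.0142, edgeR). Hsp70Bb was lower (-1.38, adjusted p = 0.0366, edgeR, a call that held in 7 of the 19 alternatives), and Hsp70Ba was among the 7 higher (2.22, adjusted p = 0.0353, edgeR). Reads of the near-identical Hsp70 copies, which also enter the median, cannot be placed with certainty among them. In nSyb no listed gene passed for time in edgeR. Of 84 tested besides the members, 3 (3.57%) had an unadjusted p under 0.05, against 3.95% of all genes, namely CASK, Hsp26 and Hsp68, named here after their values were seen.

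**Figure D4:**
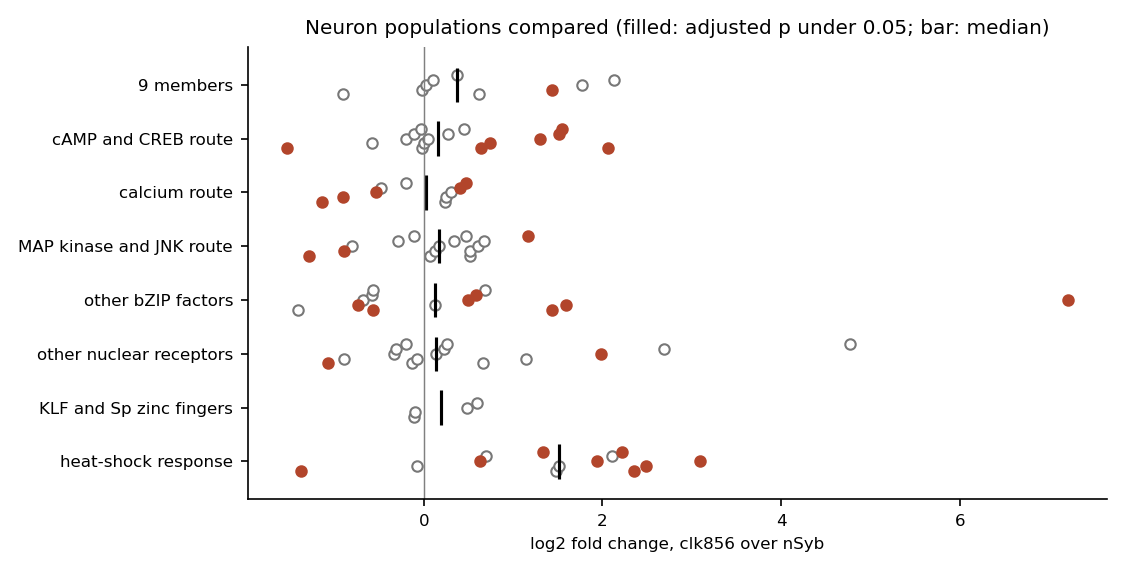
Log2 fold change of clk856 over nSyb for the 9 members and each gene tested in 7 lists of related genes, with filled points for an adjusted p under 0.05 in edgeR and a black bar at the median of each list. Among the members sr is the filled point at 1.43, and the heat-shock list has the highest median, 1.51.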

How the data were processed

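EGFP-positive neurons were sorted from dissociated brains and their poly(A) RNA was amplified by Smart-seq2. Per the labels and the processing notes, the authors made FASTQ files with bcl2fastq 2.20, aligned to dm6 (STAR) and discarded PCR duplicates by Picard, a step that can compress the counts of abundant transcripts in libraries without molecular identifiers. The counter, its strand setting and the annotation release are not given in the sources used here. The deposited count of a gene is whole reads, not normalized. The deposited RPM is the same count scaled by the authors to a library total 1.84 to 1.88 times the reads listed, and the deposited RPKM was not used, as its gene length includes introns. Reads assigned to no gene (5.53 to 8.94% of those listed) or to more than one (5.67 to 6.10%) were left out.

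Counts were tested with edgeR 4.0.16 (R 4.3.3; filterByExpr, TMM, glmQLFit and glmQLFTest) with Benjamini-Hochberg adjustment over all genes tested. The comparisons were ZT14 against ZT2 in each genotype from its 4 libraries, the difference of these effects and clk856 against nSyb from all 8 libraries. This test reports no SE. Each SE given is the absolute log2 fold change divided by the square root of the F statistic, so that it restates the test. Per-gene RPM was compared by two-sided exact permutation tests (SciPy 1.17.1), which cannot go below 0.0286 for 4 against 4. The procedure was tested on simulated data. Alternatives were DESeq2 1.42.0, limma voom 3.58.1, edgeR's likelihood ratio test, other scalings, no filter, a replicate block, a time covariate, time effects from a fit of all 8 libraries in 4 groups, single time points and each library left out. Leaving out both nSyb libraries with the higher glial levels was added after seeing the data.

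All members were named, with every listed gene called for time or its difference between genotypes, the 2 highest and 2 lowest log2 fold changes called between genotypes in each list, and tim, Clk and vri as references, and the 3 genes nearest to Hr38 and sr in profile. Members and lists were chosen with earlier results of these data known. Pka-C1, Pka-R1, Pka-R2, Sik2 and Hsp70Ba were named in addition, after their values were seen. Positions and exon lengths came from Ensembl BDGP6.54.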

Additional observations from a re-analysis of the deposited data

Results flagged for a closer look

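CrebA in the clk856 ZT2 R1 library, at 17.7 RPM, stood apart from the other 3 clk856 libraries, at 9.87 to 11.2 RPM. Its gap to the nearest library was 0.837 of the range of the 4. Each member was examined in this way in each genotype, 18 groups in all, and chance marks about 1 group in 20.

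The difference of the time effects of Hr38, clk856 minus nSyb, was 2.91 on the log2 scale, with all libraries of ZT14 above ZT2 in clk856 and below in nSyb, and the test of this difference did not pass (adjusted p = 0.560, edgeR). For CrebB the difference was -2.14, with the opposite separation of the libraries, and the test did not pass either (adjusted p = 0.818, edgeR).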

How the results depend on the processing

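For the time effect in clk856, 0 members were called in all 12 alternatives. In nSyb 1 (Hr38) was called by DESeq2 and 0 in the other 11. For the difference of time effects 1 (Hr38) was called by DESeq2, by the likelihood ratio test and with no filter, and 0 in the other 13, limma voom included. Between genotypes, in place of sr alone, 2 were called by DESeq2 (sr and CrebB), which called 2123 of the 7784 genes tested. Without the 2 nSyb libraries with high glial levels 2 were called (sr and cbt). The number was 0 by limma voom and at ZT2 or ZT14 alone, and 0 to 1 with one library left out. For cbt the call without those 2 libraries was set by the choice, as they held its 2 highest nSyb values. With replicate number as a block the members called were 0, 0, 0 and 1, as without it. Deviations of same-numbered libraries correlated at -0.016 to 0.030. No pairing by number was seen, though 2 libraries per condition cannot exclude one.

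Over all genes the count called varied with the tool: 2 for clk856 time against 85 by DESeq2, 97 by the likelihood ratio test, 7 by limma voom, 81 with no filter, 4 with the block and 0 in the fit of all 8 libraries in 4 groups, 0 for nSyb time against 224 by DESeq2 and 6 by the likelihood ratio test, 1 for the difference against 178, 85 and 98 (no filter), 85 without nSyb ZT2 R2 and 464 without the 2 nSyb libraries, and 1326 between genotypes against 2123 by DESeq2, 8 at ZT2 and 340 at ZT14. The causes were not tested.

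Signs turned only for values that were not called. Between genotypes these were kay at 0.033 with limma voom and 0.29 at ZT14 alone, Jra at -0.10 by library size, -0.12 at ZT2 alone and -0.084 without the 2 nSyb libraries, Crtc at -0.027 by library size and Hr38 at 0.66 at ZT14 alone. The difference of time effects of Atf3 was 0.54 without the 2 nSyb libraries. With one library left out, the clk856 time effect ranged from -0.72 to 0.13 for CrebA, -0.21 to 0.76 for sr and -0.011 to 0.34 for kay. The nSyb time effect ranged from -0.52 to 0.55 for Atf3, -0.43 to 0.29 for Crtc, -1.15 to 0.95 for cbt and -0.50 to 0.0065 for Jra. The difference ranged from -0.56 to 0.17 for Crtc, -0.85 to 0.21 for Atf3 and -0.54 to 1.57 for cbt, and the genotype effect from -0.11 to 0.11 for kay and -0.081 to 0.080 for Jra. The power to call a change in genes as low as CrebA and CrebB was not tested.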
